A study of Sus scrofa with 24 samples.

Results

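Genes of fatty acid uptake and activation were followed in pig preadipocytes during adipogenic differentiation. The set held 10 genes listed by their place in the pathway and not by their values, and 9 of them were found in a table of 25462 genes. They were the lipase LPL and its inhibitor ANGPTL4, the fatty acid binding protein genes FABP3, FABP4 and FABP5, the transporter gene SLC27A1, and the long-chain acyl-CoA synthetase genes ACSL1, ACSL3 and ACSL4. The last gene of the list, the fatty acid receptor gene CD36, was not analysed here. All 9 passed the filter on low values, which kept 16135 genes.

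The study compared cells of back subcutaneous fat (BF) with cells of intramuscular fat from the longissimus dorsi muscle (IMF), both from Yorkshire piglets aged 6 days. RNA-seq libraries were made before induction (day 0) and on days 2, 4 and 8, which gave 8 groups (BF-0d, BF-2d, BF-4d, BF-8d, IMF-0d, IMF-2d, IMF-4d and IMF-8d) of 3 libraries each, 24 in all. Cells of both depots were grown in DMEM-F12 with serum. After day 0 they received 3-isobutyl-1-methylxanthine, dexamethasone and insulin until day 2, insulin alone until day 4 and plain growth medium from then on. No genetic change was made in any group. The methods name 3 piglets, but the labels do not tie a replicate number to a piglet, so p-values measure the spread between these libraries, which may in part be technical. The cells were collagenase digests of tissue taken into culture, and values are averages over all cells of a dish, in which fewer cells of a type and less RNA per cell cannot be told apart.

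Long-chain fatty acids reach a fat cell largely as triglyceride in circulating lipoproteins. Lipoprotein lipase, secreted by the cell and carried to the capillary wall, frees the fatty acids, and ANGPTL4 inactivates the enzyme. Inside the cell, binding proteins carry the fatty acids, and transporters and acyl-CoA synthetases trap them by linking them to coenzyme A, the step that commits them to storage or oxidation. In pigs these genes are of interest because back fat and the fat inside muscle matter differently for meat.

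The levels are given in FPKM, fragment counts corrected for gene length and library size, which allow levels of different genes to be compared. Differences are given as log2 fold changes on the log2(FPKM + 1) scale, on which a change of 1 is a doubling for an abundant gene and less than the true change for a gene near or under 1 FPKM. A change was called where limma, fitted to all 24 libraries and all 16135 genes, gave a Benjamini-Hochberg adjusted p under 0.01 and a log2 fold change of 1 or more in either direction. FPKM values carry no depth, and the reads behind each were not derived from the sequencing statistics that the paper reports. Library totals lay between 307967 and 385768 FPKM.

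ACSL4 rose in both depots, ANGPTL4 rose in BF, and FABP3 moved the other way. The 200 bases before the RefSeq gene start (Sscrofa11.1) of these 3 genes are shown as examples. LPL and ACSL1 also rose in both depots, and their windows are not shown. Each window shown is read 5′ to 3′ on the strand of its gene and ends at the base before the start. Capitals mark matches, on either strand, to 6 short motifs. They were the nuclear receptor core AGGTCA, the binding motif of factor NF-Y, written as CCAAT, the core promoter box TATAAA, the hypoxia response core ACGTG, the cAMP response core TGACG and the GC box, written as GGGCGG.
ACSL4, chrX:89838104-89838303, minus strand: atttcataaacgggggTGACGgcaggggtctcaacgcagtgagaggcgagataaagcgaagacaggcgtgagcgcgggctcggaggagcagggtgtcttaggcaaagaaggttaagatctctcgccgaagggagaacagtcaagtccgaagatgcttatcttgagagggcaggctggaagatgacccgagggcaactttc
ANGPTL4, chr2:70912893-70913092, minus strand: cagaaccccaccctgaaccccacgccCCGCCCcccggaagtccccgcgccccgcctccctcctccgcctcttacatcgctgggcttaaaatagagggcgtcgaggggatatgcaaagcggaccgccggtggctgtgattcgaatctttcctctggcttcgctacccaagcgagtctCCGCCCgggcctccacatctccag
FABP3, chr6:87950709-87950908, minus strand: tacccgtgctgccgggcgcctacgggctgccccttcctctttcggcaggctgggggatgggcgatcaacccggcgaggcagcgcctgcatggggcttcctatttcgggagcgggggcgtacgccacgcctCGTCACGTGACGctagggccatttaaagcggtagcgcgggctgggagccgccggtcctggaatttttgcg

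The ACSL4 window held only TGACG, at 184 to 180 bases before the start, and 55.5% of its bases were G or C, against a median of 59% over the windows of 19569 genes. ANGPTL4 held GGGCGG on the other strand at 174 to 169 and at 24 to 19. In the FABP3 window ACGTG and TGACG each matched on both strands in a single overlapping run from 70 to 59 bases before the start. Over all windows of this length, CCAAT was found in 27.75%, TATAAA in 7.686%, ACGTG in 15.67%, TGACG in 16.97%, GGGCGG in 43.73% and AGGTCA in 9.97%. A match is a run of letters and not a measured binding site.

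**Figure D1:**
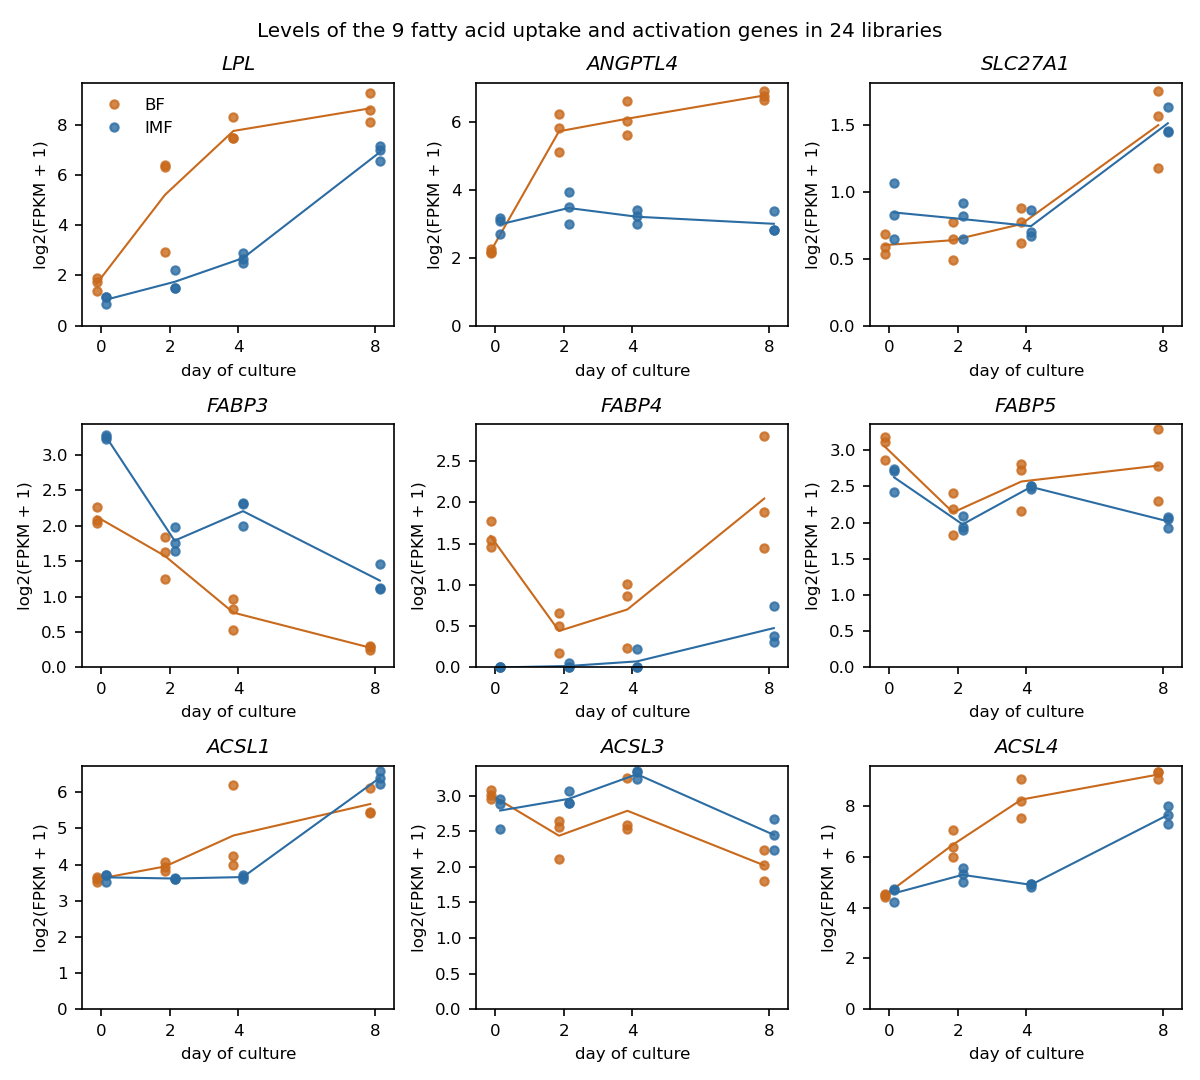
Level of each gene, as log2(FPKM + 1), on each day of culture in BF (orange) and IMF (blue). Points are libraries, lines join the group means, each panel has its own vertical scale starting at 0, and BF points are drawn slightly left of the day. LPL and ACSL4 rose from day 2 in BF and on day 8 in IMF, ANGPTL4 rose in BF, and FABP3 fell in both depots.

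Of the 9 genes, 6 were called in at least 1 of the 12 comparisons between days of a depot or between depots on a day, 32 times in all, where 23.7% of all genes tested were called in at least 1 of the 12. FABP5, SLC27A1 and ACSL3 were not called in any of them. In BF, 4 of 9 genes were called between days 0 and 2 (LPL, ANGPTL4 and ACSL4 higher, FABP4 lower), where 6.59% of all genes tested were called. Between days 2 and 4 there were 2 (LPL and ACSL4, both higher), against 3.35% of all genes, and between days 4 and 8 there was 1 (FABP4, higher), against 2.93%. Over the whole course in BF, 5 of 9 were called (LPL, ANGPTL4, ACSL4 and ACSL1 higher, FABP3 lower), against 13.7%. In IMF, 1 gene was called between days 0 and 2 (FABP3, lower), against 0.787% of all genes, and none between days 2 and 4, where 0.0372% were called. In that interval 2 of the 9 genes (FABP3 and FABP5) had an unadjusted limma p under 0.05. Between days 4 and 8, 3 genes were called in IMF (LPL, ACSL1 and ACSL4, all higher), against 7.25%, and over the whole course there were 4 (LPL, ACSL1 and ACSL4 higher, FABP3 lower), against 9.04%. The median log2 fold change between days 0 and 8 was 0.895 over the 9 genes in BF and 0.476 in IMF, beside -0.06 and -0.05 over all genes tested. The IMF median is the fitted value of FABP4, which was listed at 0 in every IMF-0d library, and without FABP4 the medians were 1.49 and 0.34.

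Between the depots, 2 of 9 genes were called on day 0 (FABP3 higher and FABP4 lower in IMF), against 2.58% of all genes. On day 2 there were 3 (LPL, ANGPTL4 and ACSL4, all lower in IMF), against 4.74%, and on day 4 there were 4 (the same genes lower, FABP3 higher in IMF), against 11.3%. On day 8, 3 were called (ANGPTL4, FABP4 and ACSL4, all lower in IMF), against 6.96%. Whether a change over an interval differed between the depots was tested by an interaction contrast, the change in IMF minus the change in BF. It was called for 1 gene between days 0 and 2 (2.45% of all genes), 2 between days 2 and 4 (3.06%), 3 between days 4 and 8 (6.39%) and 2 between days 0 and 8 (4.98%).

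**Figure D2:**
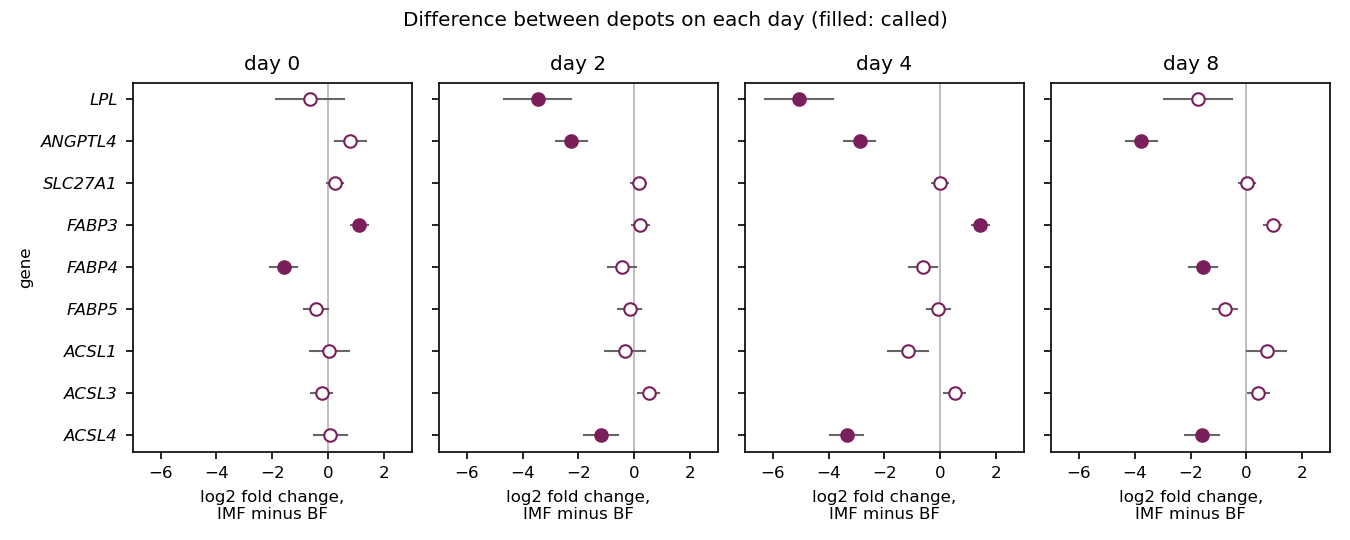
Log2 fold change between the depots, IMF minus BF, for each gene on days 0, 2, 4 and 8. Points are limma estimates from 3 libraries per group, bars are their 95% confidence intervals, and filled points were called. LPL was called on days 2 and 4 (-3.46 and -5.06), and ANGPTL4 and ACSL4 on days 2, 4 and 8.

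LPL (ENSSSCG00000040631, chromosome 14, 4104761 to 4134964), the lipase itself, had the widest range of the 9 genes on the log2(FPKM + 1) scale. In BF it stood at 1.58, 2.76 and 2.33 FPKM in the day 0 libraries, at 82.1, 77.7 and 6.71 on day 2, at 176, 313 and 178 on day 4, and at 611, 276 and 380 on day 8. In IMF it stood at 1.18, 1.18 and 0.822 FPKM on day 0, at 1.86, 3.62 and 1.86 on day 2, at 6.44, 4.69 and 5.36 on day 4, and at 127, 141 and 93.7 on day 8. The BF and IMF libraries did not overlap on any day, and replicate 3 of BF-2d stood far below the other two libraries of its group. Ordered by mean level, the groups ran BF-8d, BF-4d, IMF-8d, BF-2d, IMF-4d, IMF-2d, BF-0d and IMF-0d, with overlapping libraries between BF-8d and BF-4d and between IMF-2d and BF-0d.

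LPL rose in BF between days 0 and 2 by 3.54 (SE 0.58, adjusted p = 0.000138) and between days 2 and 4 by 2.54 (adjusted p = 0.00431). Its further change of 0.90 between days 4 and 8 was not called (95% confidence interval -0.32 to 2.11, adjusted p = 0.308). Without BF-2d replicate 3 the first rise was 4.67 and the second 1.41, both still called. The second call was lost without BF-4d replicate 2 (2.27, adjusted p = 0.0218) or replicate 3 (2.67, adjusted p = 0.0103). Fitted on only the libraries compared, neither rise was called (adjusted p = 0.0411 and 0.212). In IMF the single called step was between days 4 and 8, a rise of 4.21 (SE 0.58, adjusted p = 1.82e-05), called in every fit with a library left out. Over the whole course LPL rose by 6.98 in BF and 5.86 in IMF (adjusted p = 1.47e-08 and 2.61e-07), and the difference between these changes, -1.11, was not called (95% confidence interval -2.83 to 0.61, adjusted p = 0.386).

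On the day of sampling LPL was lower in IMF by -3.46 on day 2 (adjusted p = 0.000305, and -4.59 without BF-2d replicate 3) and by -5.06 on day 4 (adjusted p = 1.36e-06). The call on day 2 was lost when only those 6 libraries were fitted (adjusted p = 0.0729). On day 8 the difference of -1.75 missed the threshold (95% confidence interval -2.96 to -0.53, adjusted p = 0.0241), and it was called with only the day 8 libraries fitted (adjusted p = 0.00339). The day 0 difference was -0.63 (adjusted p = 0.567). The rise between days 4 and 8 was larger in IMF by 3.31 (SE 0.82, adjusted p = 0.00814), a call kept in 2 of the 12 leave-one-out fits, those without BF-4d replicate 3 or BF-8d replicate 1. Over the remaining 10 the adjusted p lay between 0.0121 and 0.0248 and the value between 3.04 and 3.48, and the call was also lost with no filter on low values (adjusted p = 0.014). Between days 0 and 2 the interaction of -2.83 was not called (adjusted p = 0.0289) and became so without BF-2d replicate 3 (-3.96, adjusted p = 9.62e-07).

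ANGPTL4 (ENSSSCG00000013599, chromosome 2, 70905767 to 70912892), the secreted inhibitor of the lipase, rose in BF and had no called change in IMF. BF libraries read 3.75, 3.46 and 3.43 FPKM on day 0, 55.5, 73.4 and 33.6 on day 2, 64.4, 48.1 and 97.03 on day 4, and 108, 98.2 and 119 on day 8. IMF libraries read 8.00, 5.53 and 7.38 FPKM on day 0, 10.1, 14.2 and 6.88 on day 2, 9.63, 8.30 and 6.92 on day 4, and 5.98, 6.08 and 9.29 on day 8. From day 2 on, every BF library stood above every IMF library, whereas on day 0 every IMF library stood above every BF library. The 4 IMF groups overlapped one another in the order of levels, as did BF-4d and BF-2d.

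ANGPTL4 rose in BF by 3.53 between days 0 and 2 (SE 0.27, adjusted p = 2.09e-08) and by 4.59 between days 0 and 8 (adjusted p = 1.11e-10). In IMF the change over the whole course was 0.01 (95% confidence interval -0.55 to 0.58, adjusted p = 0.979). The interaction was called between days 0 and 2 (-3.05, adjusted p = 9.67e-05) and between days 0 and 8 (-4.57, adjusted p = 1.06e-07), in every fit with a library left out. ANGPTL4 was lower in IMF by -2.26 on day 2, -2.88 on day 4 and -3.77 on day 8 (adjusted p = 6.71e-06, 6.98e-08 and 2.60e-09). On day 0 the opposite difference of 0.80 was not called (adjusted p = 0.0525). With only the day 2 libraries fitted the day 2 call was lost (adjusted p = 0.0224).

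FABP3 (ENSSSCG00000036883, chromosome 6, 87943003 to 87950708), the binding protein of heart and skeletal muscle, fell in both depots over the whole course, over which the lipase rose. It stood in BF at 3.82, 3.10 and 3.23 FPKM on day 0, 1.38, 2.08 and 2.59 on day 2, 0.960, 0.443 and 0.767 on day 4, and 0.225, 0.231 and 0.184 on day 8. In IMF it stood at 8.37, 8.73 and 8.54 FPKM on day 0, 2.37, 2.12 and 2.94 on day 2, 3.98, 2.98 and 3.96 on day 4, and 1.17, 1.15 and 1.74 on day 8. Every IMF library exceeded every BF library on days 0, 4 and 8, and the depots overlapped on day 2. IMF-0d was the highest group and overlapped no other, and BF-4d and BF-8d were the lowest.

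Between days 0 and 8 FABP3 fell by 1.85 in BF and by 2.03 in IMF on the log2 scale (SE 0.15 each, adjusted p = 5.66e-09 and 3.20e-09). The fall in IMF was called within the first interval, at -1.47 (adjusted p = 4.09e-06), and the change between days 4 and 8, -0.98 (adjusted p = 4.14e-05), was called without IMF-4d replicate 2 (-1.09) or IMF-8d replicate 3 (-1.095). In IMF FABP3 went up by 0.42 between days 2 and 4, which was not called (adjusted p = 0.364). The BF intervals gave -0.55, -0.80 and -0.50, none of them called. The interaction between days 0 and 2 was -0.91 (adjusted p = 0.00866), under the fold threshold, and was called without BF-2d replicate 1 (-1.07) or IMF-2d replicate 3 (-1.005). FABP3 was higher in IMF on day 0 by 1.13 (adjusted p = 1.68e-05) and on day 4 by 1.43 (adjusted p = 2.65e-07), and on day 8 the difference of 0.95 (adjusted p = 5.79e-05) fell short of the fold threshold and passed it without IMF-8d replicate 1 (1.003) or replicate 2 (1.007). The interaction between days 2 and 4 was 1.22 (SE 0.21, adjusted p = 0.00119), kept whichever library was omitted but not called in a fit of those 4 groups alone (adjusted p = 0.0291). These levels lie near the pseudocount of 1 FPKM. With 0.1 FPKM added instead, the BF fall became -3.47, the falls in BF between days 2 and 4 and between days 4 and 8 (-1.37 and -1.34) and in IMF between days 4 and 8 (-1.37) were called, and the depots also differed on day 8 (2.20).

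Marker genes of the cells that a digest of muscle can hold were read beside FABP3. Of 10 skeletal muscle markers in the table, 9 were under 1 FPKM in every library, and MYOD1, MYF5 and MYMK were listed at 0 throughout. The summed level of the list was in effect that of DES, the muscle intermediate filament gene, and moved with FABP3. It lay between 29.7 and 45.4 FPKM in IMF-0d, 3.07 and 4.69 in IMF-2d, 10.1 and 13.2 in IMF-4d, and 1.38 and 2.25 in IMF-8d, against 4.55 to 4.91 in BF-0d and at most 0.154 in BF-8d. Its part in the FABP3 result was not tested.

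FABP4 (ENSSSCG00000040681, chromosome 4, 55096400 to 55101209), the binding protein of mature fat cells, stayed low throughout. In BF it stood at 1.91, 1.75 and 2.41 FPKM on day 0, 0.128, 0.574 and 0.411 on day 2, 1.012, 0.822 and 0.176 on day 4, and 5.996, 1.73 and 2.68 on day 8. In IMF it was listed at 0 in all 3 libraries of day 0 and in 2 libraries each of days 2 and 4, where the remaining libraries read 0.0368 and 0.164, and at 0.300, 0.236 and 0.676 FPKM on day 8. BF libraries exceeded IMF libraries on every day, and the highest BF-8d library stood apart from the other two. FABP4 fell in BF by 1.15 on the log2 scale between days 0 and 2 (SE 0.24, adjusted p = 0.00101) and rose by 1.34 between days 4 and 8 (adjusted p = 0.00063). The rise lost its call without BF-8d replicate 1 (0.96) and with only those libraries fitted (adjusted p = 0.102). With 0.1 FPKM added the fall was -2.30 and the rise 2.26, both still called, and the IMF change over the whole course was called as well (adjusted p = 0.00223).

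Between the depots FABP4 was called on day 0 (adjusted p = 7.86e-05, no fold being given against a group listed at 0) and on day 8 (-1.57, SE 0.24, adjusted p = 4.22e-05). The day 8 call was lost with only those libraries fitted (adjusted p = 0.0106), and with 0.1 FPKM added the day 8 difference was -2.74. On days 2 and 4 the differences of -0.42 and -0.63 were not called, and with 0.1 FPKM added they were -1.95 and -2.25 and were called. Of 9 markers of mature fat cells in the table, ADIPOQ, PLIN1, PLIN4 and LEP were at or near 0, each under 1 FPKM in every library. PNPLA2 lay between 16.7 and 38.3 FPKM, CEBPA between 1.28 and 10.03, LIPE between 0.589 and 1.72, GPD1 between 0.522 and 1.11, and CIDEC between 0 and 1.15. The 9 markers summed to between 22.0 and 23.6 FPKM in BF-0d and between 41.3 and 48.4 in BF-2d. Their sum was 31.7 to 32.6 FPKM in BF-4d and 21.1 to 26.1 in BF-8d. In IMF the ranges by day were 22.5 to 26.8, 25.3 to 25.9, 27.6 to 32.1 and 30.2 to 38.6 FPKM. The part of these markers in the results was not tested.

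The 6 stromal markers, matrix and receptor genes of fibroblast-like cells, were read as a sum, which was for the most part that of the collagen genes COL1A1 and COL1A2. In BF they summed to between 11966 and 13128 FPKM on day 0, between 5389 and 11153 on day 2, between 2851 and 4191 on day 4 and between 3308 and 3667 on day 8. In IMF the corresponding ranges were 12094 to 12559, 10428 to 11640, 10072 to 10333 and 5809 to 6659 FPKM. The highest BF-2d sum, 11153 FPKM, was that of replicate 3, the library with the lowest LPL of its group. The other markers did not all follow the collagens. The mean of PDGFRA went from 77.0 FPKM in BF-0d to 342 in BF-4d and 228 in BF-8d, and from 60.1 in IMF-0d to 226 in IMF-8d. PDGFRB was at 135 FPKM in BF-0d and 182 in BF-8d, LUM at 262 and 328, and DCN at 1004 and 497. In IMF the mean of DCN was 777 FPKM on day 0, 1373 on day 4 and 930 on day 8. The part of these markers in the results of LPL and ACSL4 was not tested.

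FABP5 (ENSSSCG00000006153, chromosome 4, 55277831 to 55282585), a binding protein found in skin, fat and macrophages, had no called change. It stood in BF at 6.26, 7.63 and 8.09 FPKM on day 0, 3.54, 4.33 and 2.54 on day 2, 5.99, 5.62 and 3.48 on day 4, and 8.74, 3.89 and 5.88 on day 8. In IMF the corresponding libraries read 4.37, 5.54 and 5.65, then 2.71, 2.83 and 3.27, then 4.52, 4.67 and 4.68, then 3.20, 3.15 and 2.80 FPKM. The mean of both depots was lowest on day 2, and neighbouring groups in the order of levels overlapped except IMF-4d and BF-2d. Its largest change, -0.91 in BF between days 0 and 2 (95% confidence interval -1.33 to -0.49, adjusted p = 0.00168), stayed under the fold threshold and passed it without BF-0d replicate 1 (-1.008), without BF-2d replicate 2 (-1.05) and with 0.1 FPKM added (-1.08). On day 8 FABP5 differed between the depots by -0.77 (95% confidence interval -1.19 to -0.35, adjusted p = 0.00522), and by -1.02 without BF-8d replicate 2, where it was called.

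As a share of the 3 binding protein genes' summed FPKM, FABP3 made up 26.7 ± 4.48% in BF-0d and 2.52 ± 1.27% in BF-8d (SD, n = 3). The corresponding share in IMF was 62.4 ± 2.93% in IMF-0d and 27.9 ± 4.72% in IMF-8d. FABP5 held 64.04 ± 4.88% of the sum in BF-8d and 63.9 ± 8.84% in IMF-8d. FABP4 held 33.4 ± 5.77% in BF-8d and 8.19 ± 4.16% in IMF-8d. These shares were not tested.

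SLC27A1 (ENSSSCG00000013879, chromosome 2, 60203374 to 60235689), which encodes the fatty acid transport protein FATP1, had group means of at most 1.86 FPKM, the lowest maximum of the 9 genes. In BF it stood at 0.450, 0.501 and 0.605 FPKM on day 0, 0.564, 0.408 and 0.713 on day 2, 0.537, 0.714 and 0.838 on day 4, and 2.37, 1.26 and 1.95 on day 8. In IMF it stood at 0.776, 0.563 and 1.09 FPKM on day 0, 0.766, 0.568 and 0.890 on day 2, 0.815, 0.592 and 0.623 on day 4, and 1.73, 1.74 and 2.09 on day 8. The day 8 libraries of both depots stood above all others, overlapped each other, and overlapped no other group. Between days 4 and 8 the change was 0.74 in BF and 0.77 in IMF (adjusted p = 0.000763 and 0.000182), under the fold threshold. With 0.1 FPKM added these were 1.27 and 1.34 and were called. Over the whole course the change was 0.89 in BF (adjusted p = 1.46e-05) and 0.67 in IMF (adjusted p = 0.000552), neither past the fold threshold. The BF change was called after median ratio scaling (1.02), without BF-8d replicate 2 (1.06) and with 0.1 FPKM added (1.63), and the IMF change with 0.1 FPKM added (1.14). Between days 4 and 8 the change differed between the depots by 0.03 (95% confidence interval -0.37 to 0.42, adjusted p = 0.942), over the whole course by -0.23 (95% confidence interval -0.62 to 0.17, adjusted p = 0.441), and the day 8 levels by 0.01 (95% confidence interval -0.27 to 0.29, adjusted p = 0.954).

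ACSL1 (ENSSSCG00000015784, chromosome 15, 45866858 to 45936327), a main synthetase of fat, heart and liver, had a higher mean in IMF than in BF on day 8. So had FABP3 and ACSL3, unlike LPL, ANGPTL4 and ACSL4. BF libraries read 10.6, 11.04 and 11.7 FPKM on day 0, 15.8, 14.3 and 13.2 on day 2, 17.8, 14.9 and 72.02 on day 4, and 43.1, 68.8 and 42.4 on day 8. IMF libraries read 12.2, 12.04 and 10.4 FPKM on day 0, 11.2, 11.3 and 11.2 on day 2, 11.06, 12.1 and 11.6 on day 4, and 83.1, 94.5 and 73.9 on day 8. On day 4 replicate 3 of BF stood at the level of the day 8 groups while the other two were near the level of day 2. IMF libraries were almost level until day 4, and all 3 IMF-8d libraries exceeded all BF-8d libraries.

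ACSL1 rose in IMF between days 4 and 8 by 2.75 (SE 0.34, adjusted p = 4.29e-06). Over the whole course it rose by 2.08 in BF and 2.75 in IMF (adjusted p = 4.08e-05 and 2.87e-06), calls kept in every fit with a library left out. In BF the step between days 4 and 8 was 0.87 (adjusted p = 0.0789), and without BF-4d replicate 3 it was 1.57 and called (adjusted p = 8.59e-07). Without BF-4d replicate 2 it was 0.47 (adjusted p = 0.405). On day 4 the depot difference of -1.15 just missed the threshold (adjusted p = 0.01005), and on day 8 it was 0.72 (95% confidence interval 0.01 to 1.44, adjusted p = 0.105). The day 4 difference was called without BF-4d replicate 1 (-1.44) or replicate 2 (-1.56) and was -0.46 and not called without BF-4d replicate 3 (adjusted p = 0.0301). It was also called with a pseudocount of 0.1 FPKM (-1.20), with the stricter filter (-1.15) and after median ratio scaling (-1.31). The interaction between days 4 and 8 was 1.87 (SE 0.48, adjusted p = 0.0097), kept in 4 of the 12 leave-one-out fits, those without a BF-4d library or BF-8d replicate 2, with a value of 1.18 without BF-4d replicate 3. Over the remaining 8 the adjusted p lay between 0.0156 and 0.0281, and it was 0.0696 with only those libraries fitted, 0.019 with no filter, 0.0107 after median ratio scaling and 0.0139 with a replicate block.

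Markers of immune and endothelial cells were read beside ACSL1. Of 8 immune markers in the table, 5 were under 1 FPKM in every library, C1QA and C1QB being listed at 0 throughout and PTPRC at most at 0.00835. Their summed level was 18.9 FPKM in BF-4d replicate 3 against 3.83 and 3.14 in replicates 1 and 2, and most of it was CD14, a lipopolysaccharide co-receptor gene, at 17.1 against 2.87 and 2.10. In IMF the sum lay between 4.51 and 5.82 FPKM on day 4 and between 8.85 and 11.2 on day 8, with CD14 at 3.23 ± 0.536 and 7.74 ± 1.11 (SD, n = 3). On the earlier days the sum lay between 6.86 and 7.67 FPKM in IMF-0d and between 4.11 and 4.56 in IMF-2d, where ACSL1 was level, and between 5.37 and 6.83 in BF-0d and 3.20 and 5.29 in BF-2d, where the mean of ACSL1 was 11.09 and 14.5. In BF-8d the sum lay between 8.06 and 13.3 FPKM, where the mean of ACSL1 was 51.4. Replicate 2 had both the highest sum and the highest ACSL1 of BF-8d. AIF1, a macrophage gene, was at 0.909 FPKM in IMF-4d and 0.870 in IMF-8d. Of 7 endothelial markers 4 were under 1 FPKM in every library, and their sum was 5.03 FPKM in BF-4d replicate 3 against 7.97 and 12.8 in the other two. In IMF it lay between 6.22 and 8.95 FPKM on day 4 and between 7.91 and 17.2 on day 8. The part of these markers in the ACSL1 results was not tested.

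ACSL3 (ENSSSCG00000016223, chromosome 15, 124741986 to 124816955), a synthetase of the endoplasmic reticulum and of forming lipid droplets, had no called change. BF libraries read 7.04, 6.77 and 7.45 FPKM on day 0, 4.90, 3.33 and 5.23 on day 2, 4.76, 5.04 and 8.47 on day 4, and 3.72, 2.48 and 3.06 on day 8. IMF libraries read 6.37, 6.76 and 4.80 FPKM on day 0, 7.41, 6.44 and 6.46 on day 2, 9.15, 8.41 and 9.06 on day 4, and 4.44, 5.37 and 3.70 on day 8. IMF-4d was the highest group and BF-8d the lowest, and apart from IMF-4d each group overlapped its neighbour in the order of levels. The change over the whole course in BF was -0.99 (SE 0.18, adjusted p = 0.000104), at the edge of the fold threshold and called without BF-0d replicate 2 (-1.02), without BF-8d replicate 1 (-1.10) and with 0.1 FPKM added (-1.19). Between days 4 and 8 the change was -0.77 in BF (adjusted p = 0.00484). In IMF it was -0.85 (95% confidence interval -1.22 to -0.48, adjusted p = 0.000925). These changes differed between the depots by -0.09 (adjusted p = 0.863).

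ACSL4 (ENSSSCG00000012583, chromosome X, 89760863 to 89838103), the synthetase that prefers arachidonic acid, was the most abundant synthetase of the set. In BF it stood at 22.0, 21.6 and 20.2 FPKM on day 0, 131, 83.7 and 63.2 on day 2, 182, 294 and 531 on day 4, and 642, 539 and 645 on day 8. In IMF it stood at 25.04, 26.0 and 17.9 FPKM on day 0, 39.4, 45.7 and 30.9 on day 2, 29.8, 27.3 and 29.5 on day 4, and 197, 259 and 157 on day 8. The depots overlapped on day 0, and from day 2 on every BF library exceeded every IMF library of that day. In the order of levels BF-4d overlapped IMF-8d, IMF-0d overlapped BF-0d, and no other neighbours overlapped.

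In BF ACSL4 rose by 2.01 between days 0 and 2 (SE 0.29, adjusted p = 3.13e-05), by 1.78 between days 2 and 4 (adjusted p = 0.000275) and by 4.77 over the whole course (adjusted p = 1.50e-10). The second step was not called with only those libraries fitted (adjusted p = 0.151). Between days 4 and 8 the change of 0.99 was not called (adjusted p = 0.0213), and without BF-4d replicate 3 it was 1.38 and called (adjusted p = 0.000582). Without BF-4d replicate 1 it was 0.62 (adjusted p = 0.155). In IMF ACSL4 rose between days 4 and 8 by 2.75 (adjusted p = 5.89e-07) and over the whole course by 3.09 (adjusted p = 8.75e-08), calls kept in every fit with a library left out.

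ACSL4 was lower in IMF by -1.19 on day 2 (adjusted p = 0.00517), -3.36 on day 4 (adjusted p = 2.51e-08) and -1.59 on day 8 (adjusted p = 0.000253). The first of these was kept in 2 of the 6 leave-one-out fits (-0.91 without BF-2d replicate 1, -1.23 without replicate 2, -1.21 without IMF-2d replicate 1, -1.04 without replicate 3) and was lost with only the day 2 libraries or with no filter (adjusted p = 0.0634 and 0.0103). The interactions were -2.17 between days 2 and 4, 1.77 between days 4 and 8 and -1.68 between days 0 and 8 (SE 0.41 each, adjusted p = 0.00217, 0.00472 and 0.00686). The first was called in every fit with a library left out. The second was called in 5 of 12, those without BF-4d replicate 1 or 3, BF-8d replicate 1 or 3 or IMF-8d replicate 3, and read 1.58 to 1.79 in the rest. The third was called in 2 of 12, those without IMF-0d replicate 3 or IMF-8d replicate 2, and read -1.77 to -1.51 in the rest. With only the libraries compared, the first and second were lost (adjusted p = 0.035 and 0.0158), and the third was lost with no filter (0.013) and with a replicate block (0.0106).

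**Figure D3:**
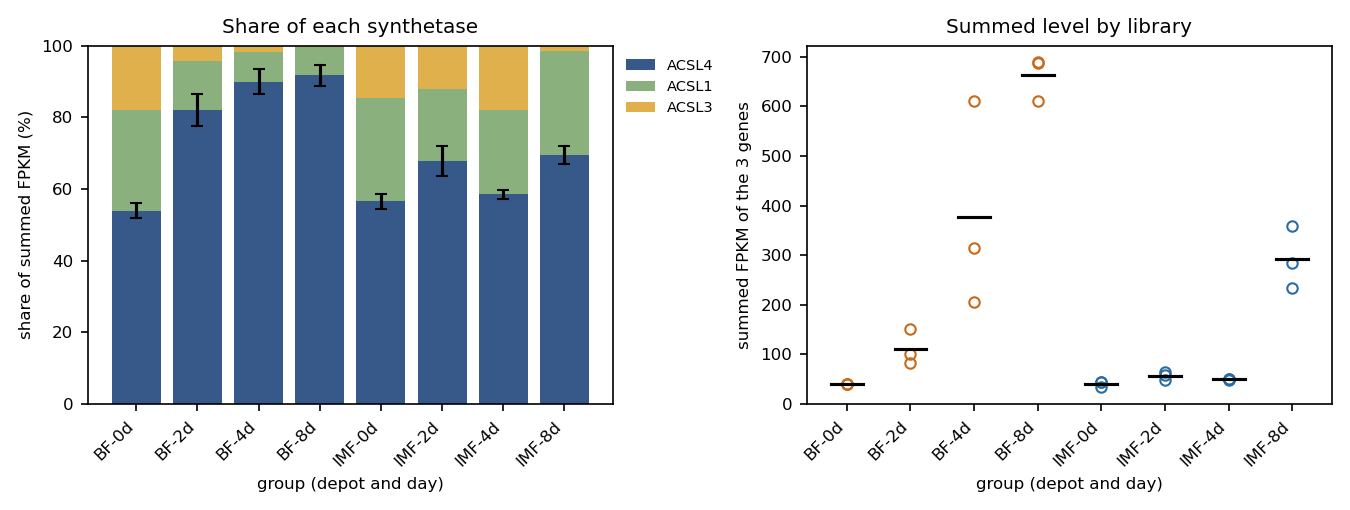
Left, mean share of ACSL4, ACSL1 and ACSL3 in their summed FPKM in each group, with bars of 1 SD over 3 libraries for ACSL4. Right, the summed FPKM of the 3 genes in each library (circles) and the group mean (line), with ACSL4 at 91.6% of 663 FPKM in BF-8d and 69.5% of 293 FPKM in IMF-8d.

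The 3 synthetase genes started alike in the depots, with a summed level of 39.5 FPKM in BF-0d against 40.5 in IMF-0d. ACSL4 held 53.9 ± 2.19% of the sum in BF-0d, 82.1 ± 4.49% in BF-2d, 89.8 ± 3.49% in BF-4d and 91.6 ± 2.88% in BF-8d (SD, n = 3). In IMF its share was 56.5 ± 2.11%, 67.9 ± 4.18%, 58.5 ± 1.26% and 69.5 ± 2.61% on the same days. ACSL1 held 7.89 ± 2.93% of the sum in BF-8d and 29.0 ± 2.57% in IMF-8d. These shares are descriptions and were not tested.

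Across the 24 libraries, which share their groups and so are not independent points, LPL and ACSL4 had a Pearson correlation of 0.961 on the log2(FPKM + 1) scale. FABP3 ran against both, with -0.898 against LPL and -0.908 against ACSL4. Among all tested genes with a symbol, those whose pattern was most like LPL were PLA2G4A (0.980) and FAM13A (0.978). The genes most like ACSL4 were WNT5A (0.981) and B4GALT3 (0.976), and those most like ANGPTL4 were PLIN2 (0.962) and JUNB (0.914). For FABP3 they were TEAD4 (0.965) and LSM3 (0.956), for ACSL1 C3 (0.953) and KCNJ15 (0.949), for ACSL3 UBE2Q2 (0.937) and SRPK2 (0.891), and for FABP5 SLC25A43 (0.736) and C1QL3 (0.723).

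Other genes of the pathway were read from a list of 36, which included 4 nuclear receptors for fatty acids beside the genes of uptake and activation. Of these, 32 were in the table and 20 were tested, the 4 receptors among them. In BF none rose and 2 fell between days 0 and 2 (10% called, against 6.59% of all genes), 1 fell between days 2 and 4 (5% against 3.35%) and 1 rose between days 4 and 8 (5% against 2.93%). Over the whole course in BF 5 fell and none rose (25% against 13.7%), with a median change of -0.73 beside -0.06 over all genes, and 1 of the 5 was the receptor gene PPARG (-1.04, adjusted p = 0.0061), which is named after its values were seen. That call was kept in 1 of the 6 leave-one-out fits, without BF-8d replicate 1, and was lost with 0.1 FPKM added, with no filter and after median ratio scaling. In IMF none was called in the first and second intervals, 1 rose and 2 fell between days 4 and 8 (15% against 7.25%), and 2 fell over the whole course (10% against 9.04%). On day 0 IMF was lower for 2 and higher for none (10% against 2.58%), and on day 2 it was higher for 2 and lower for 1 (15% against 4.74%). PPARG was 1 of the 2 lower on day 0 (-1.67, adjusted p = 0.000466, kept in 6 of 6 fits) and the 1 lower on day 2 (-1.15, adjusted p = 0.00744). The day 2 call was kept in 2 of 6, without BF-2d replicate 1 or 2, was lost with no filter and with only the day 2 libraries (adjusted p = 0.142), and read -0.63 without BF-2d replicate 3. With 0.1 FPKM added the day 0 and day 2 differences were -3.19 and -1.97, both still called. On day 8 the depot difference of PPARG, -0.79 and not called, became -2.325 with this pseudocount and was called (adjusted p = 0.0016). In IMF its change between days 4 and 8, -0.71 and not called, became -2.16 and was called (adjusted p = 0.0031). The PPARG means behind these values were low, at 0.973 FPKM in BF-8d, 0.854 in IMF-4d and 0.123 in IMF-8d. On day 4 IMF was higher for 4 and lower for 1 (25% against 11.3%), and on day 8 it was higher for 1 and lower for 2 (15% against 6.96%). The 13 genes called in some comparison are described by the 8 with the highest group means.

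Among the partners of the lipase, SEL1L, which helps the enzyme leave the endoplasmic reticulum, fell in BF by 1.35 on the log2 scale between days 0 and 2 (adjusted p = 0.000902). That call was lost without BF-2d replicate 2 (-0.92), and its others, -1.03 over the BF course and 1.07 between depots on day 2, were each kept in 1 of the 6 leave-one-out fits, the first without BF-8d replicate 3 and the second without BF-2d replicate 3. LIPG, a lipase that acts mainly on phospholipids, went from 40.8 ± 2.56 FPKM in IMF-0d to 7.25 ± 0.974 in IMF-8d and from 51.9 ± 0.778 in BF-0d to 18.6 ± 5.48 in BF-8d (SD, n = 3). It fell by 2.35 in IMF (adjusted p = 9.59e-06) and by 1.47 in BF (adjusted p = 0.000787), and its depot difference of -1.22 on day 8 was kept in 2 of 6 such fits (without BF-8d replicate 3 or IMF-8d replicate 2) and lost with no filter. VLDLR, a receptor that binds lipoproteins together with the lipase, rose in IMF between days 4 and 8 by 1.02 (adjusted p = 2.00e-05), a call lost without IMF-4d replicate 2 (0.99) or IMF-8d replicate 2 (0.93). On day 4 VLDLR was lower in IMF by -1.10 (adjusted p = 5.71e-06), and by -0.93 without BF-4d replicate 3, where it was not called. GPIHBP1, the capillary anchor of the lipase, was under 1 FPKM in every library.

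CAVIN1 and CAV1 build caveolae, membrane pits that take part in fatty acid entry. CAVIN1 was higher in IMF on day 4, at 108 ± 3.85 against 28.3 ± 4.17 FPKM (SD, n = 3), a difference of 1.91 (adjusted p = 1.17e-07, kept in 6 of 6 fits). Its day 2 difference of 1.02 was kept in 2 of 6, without BF-2d replicate 3 or IMF-2d replicate 2. On day 0 it was at 139 ± 17.6 FPKM in IMF against 73.5 ± 6.30 in BF, a difference of 0.90 (adjusted p = 0.00191) under the fold threshold. On day 8 the difference was 0.999 (adjusted p = 0.00031), called with 0.1 FPKM added (1.015) and in 4 of the 6 leave-one-out fits, those without BF-8d replicate 1 or 3 or IMF-8d replicate 1 or 2. CAV1 fell in IMF over the whole course by 1.05 (adjusted p = 0.000261), a call lost without IMF-0d replicate 1 (-0.96) or IMF-8d replicate 3 (-0.99). CAV2, a partner of CAV1, fell in BF between days 0 and 2 by 1.16 (adjusted p = 1.96e-05, kept in 6 of 6). Of the other synthetases, ACSL5 rose in BF between days 4 and 8 by 1.19 (adjusted p = 8.23e-05), a call lost without BF-8d replicate 2 (0.92). ACSF2, a mitochondrial synthetase, fell in BF between days 2 and 4 by 1.07 (adjusted p = 0.000257) and on day 4 exceeded its BF level in IMF by 1.03 (adjusted p = 7.11e-05). The first was lost without BF-2d replicate 3 (-0.96) or BF-4d replicate 3 (-0.80), and the second without BF-4d replicate 3 (0.76) or IMF-4d replicate 2 (0.98). With only the libraries compared, the calls of SEL1L in the first BF interval, CAV2, ACSL5, ACSF2, SEL1L on day 2 and CAVIN1 on day 2 were lost. After median ratio scaling those of CAV1, ACSF2 on day 4, CAVIN1 on day 2 and SEL1L on day 2 and over the BF course were lost. CAVIN1, ACSL5 and ACSF2 overlap another annotated gene, and since strand was not stated the reads of the overlapping genes cannot be told apart.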

How the data were processed

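The analysis used 24 RNA-seq libraries. The authors aligned reads to the pig genome Sscrofa11.1 with HISAT2, assembled and quantified genes with StringTie 1.3.4d and deposited FPKM values. Whether the libraries were stranded was not given in the sources used here. The submitters' processing notes also name DESeq2 1.6.3, a count method that could not be run on FPKM. All value columns were matched to samples by name. Low values did not fall on multiples that would recover whole reads.

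Genes whose FPKM summed over the libraries exceeded 1 were kept (16135), log2(FPKM + 1) was fitted with 1 mean per group by limma 3.58.1 in R 4.3.3 (trend and robust), and p-values were adjusted by Benjamini and Hochberg over all genes kept. The procedure was tested on simulated data. Symbols came from tables pairing Ensembl IDs with symbols. Promoter windows came from RefSeq gene starts and motifs were matched by letters on both strands. The genes, lists and tests were chosen with earlier results of these data known. Every listed gene of uptake and activation except CD36 is described. Other genes of the pathway are named where called, at most 8 by highest group mean, and the 2 genes most like each member with a group mean of at least 5 FPKM are named by correlation. Alternatives were a pseudocount of 0.1 FPKM, no filter, a group mean of at least 1 FPKM, median ratio scaling, a replicate block, only the libraries compared, and leaving out each library.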

Additional observations from a re-analysis of the deposited data

Results flagged for a closer look

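For 5 of the genes a change over time was called different between the depots by the interaction contrast, the change in IMF minus the change in BF on the log2(FPKM + 1) scale. For LPL the change between days 4 and 8 was larger in IMF by 3.31. For ANGPTL4 the changes between days 0 and 2 and between days 0 and 8 differed by -3.05 and -4.57. FABP3 differed by 1.22 between days 2 and 4, when it changed by -0.80 in BF and 0.42 in IMF. ACSL1 differed by 1.87 between days 4 and 8. ACSL4 differed by -2.17 between days 2 and 4, by 1.77 between days 4 and 8 and by -1.68 between days 0 and 8. The contrasts of a gene share libraries, so they are not separate pieces of evidence. With each library left out in turn, the calls of ANGPTL4 and FABP3 were kept in all 12 fits. That of LPL was kept in 2 of 12, that of ACSL1 in 4, and those of ACSL4 in 12, 5 and 2, in the order given. No group had the 4 libraries that a search for single outlying libraries needs.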

How the results depend on the processing

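Of 40 calls of the 9 genes (32 pairwise, 8 interactions), 33 were kept in every fit that left out 1 library, 26 were kept in every fit run, and none changed direction. No call was lost with a pseudocount of 0.1 FPKM or the stricter filter, 1 was lost after median ratio scaling, 4 without a filter, and 12 with only the libraries compared. With only the libraries compared, the number of genes called became 0 in BF between days 2 and 4 (3 with an unadjusted limma p under 0.05, and 0 of all genes called), 0 in BF between days 4 and 8 (7 unadjusted, and 4 of all genes called), 0 between depots on day 2 (6 unadjusted, and 107 of all genes called), and for the interactions 2 between days 0 and 2, 0 between days 2 and 4 (2 unadjusted, and 33 of all genes called) and 1 between days 4 and 8. With a pseudocount of 0.1 FPKM it became 3 in BF and 5 in IMF between days 4 and 8. In other BF comparisons this pseudocount added calls of FABP5 (days 0 to 2), FABP3 (days 2 to 4), and SLC27A1 and ACSL3 (whole course). In IMF it added FABP4 and SLC27A1 over the whole course. Between the depots it added FABP4 on days 2 and 4, ACSL1 on day 4 and FABP3 on day 8. Without a filter the number called became 1 for the interactions between days 4 and 8 and between days 0 and 8. Counts that moved less under the other settings are not listed. The causes were not tested.

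No clear pairing of the libraries by replicate number was seen. In 0 of 16 pairs of groups did every same-numbered pair correlate above 0.1 (range -0.246 to 0.457), a cut-off set for this check. Of 24 libraries, 10 correlated best on average with their own number. The check cannot exclude that same-numbered libraries came from the same piglet. With the replicate block 2 calls were lost, both interactions (ACSL1 between days 4 and 8, ACSL4 between days 0 and 8), which left 1 gene called between days 0 and 8. The block changed no other call of these genes.

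With each library left out in turn, the number called ranged in BF from 4 to 5 (day 0 to day 2), 1 to 2 (day 2 to day 4), 0 to 3 (day 4 to day 8) and 5 to 6 (whole course), and in IMF it was 1, 0, 3 to 4 and 4. Between depots it was 2, 2 to 3, 4 to 5 and 3 to 4 on days 0, 2, 4 and 8, and for the interactions 1 to 2, 2, 0 to 3 and 1 to 2. The sequencing statistics that the paper reports were not used here, so limits of detection were not given. No alternative was left out.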
